A study of Drosophila melanogaster with 12 samples.

Results

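A set of 23 probe sets, of 13966 gene probe sets on the array, shifted in 1 direction after X-rays on every array pair of fruit fly embryos at stages 9 to 11. They were chosen by their deposited intensities. A member had a mean of at least 50 over the 6 arrays of that window and an X-ray to control ratio of at least 1.8, or at most its inverse, within each of the 3 replicate numbers in the titles. Array controls and 1 further probe set were left out by the rule. Of the 23 members, 8 were higher after X-rays and 15 were lower, which is 0.124% and 0.232% of the 6471 probe sets that reached the mean. These shares were fixed by the rule, so nothing is read from them and no test of this contrast is given.

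The RNA came from whole embryos of Drosophila melanogaster, strain C-S, with no other allele or agent named, in 4 groups of 3 arrays. Untreated and X-ray treated embryos were taken at stages 9 to 11, which the titles call sensitive, and at stages 13 to 15, which they call resistant. Treated embryos were collected 15 to 20 minutes after irradiation. Neither the dose nor the number of embryos per sample is stated in the labels. Whether replicates were separate collections of embryos is not given either, so the spread between them may be partly technical. An array of whole embryos cannot tell fewer cells of a type from less RNA per cell.

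Ionising radiation breaks DNA, and in fly embryos the damage signal runs through checkpoint kinases to the transcription factor p53. p53 turns on cell death genes such as reaper, hid and sickle, whose products release caspases from their inhibitors. Embryos in the middle of development die readily after irradiation, whereas older embryos, whose cells are differentiating, lose this response as the regulatory region near reaper becomes closed by histone methylation. None of these genes could be followed by name: of a list of 30 genes of the radiation response, 0 were among the 131 genes (133 probe sets) that the RefSeq gene table pairs with an identifier of this array. None of the 23 members had a gene name either, so they are given by identifier and no role is assigned to any of them. Of 13 embryonic cell type markers, only engrailed was named, so the labelled tissue was not checked against markers.

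The 4 arrays numbered 3 had higher 5′ over 3′ ratios of the eIF-4a and Actin controls than the others. The 5′ over 3′ ratio of the eIF-4a control, which tracks RNA integrity and labelling length, was at least 0.140 on each of them and 0.0378 to 0.0798 on the other 8 arrays. The GAPDH control (3′ probe set) read 59.3 on the irradiated sensitive array numbered 3, against 232 to 331 on the other 5 arrays of that window. Every group has 1 array of each number, and ratios below were taken within a number.

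Some probe sets also met the rule when labels were exchanged. With the control and X-ray labels exchanged within number 1, 9 probe sets met the rule in place of 23. Exchanging them within number 2 also gave 9, and within number 3 it gave 16. Those 16 were 10 probe sets that were higher after X-rays in numbers 1 and 2 but lower in number 3, and 6 with the opposite pattern. These are plain counts and were not tested. At stages 13 to 15 the same rule took 18 probe sets, 11 higher (0.161% of the 6815 that reached the mean there) and 7 lower (0.103%). Exchanges within numbers 1, 2 and 3 gave 7, 7 and 6 there. The lists of the windows shared 0 probe sets, which is 0 of 23 and 0 of 18. At shares of 0.161% and 0.103%, unrelated lists of this length would also be likely to share 0, so nothing is read from this.

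**Figure D1:**
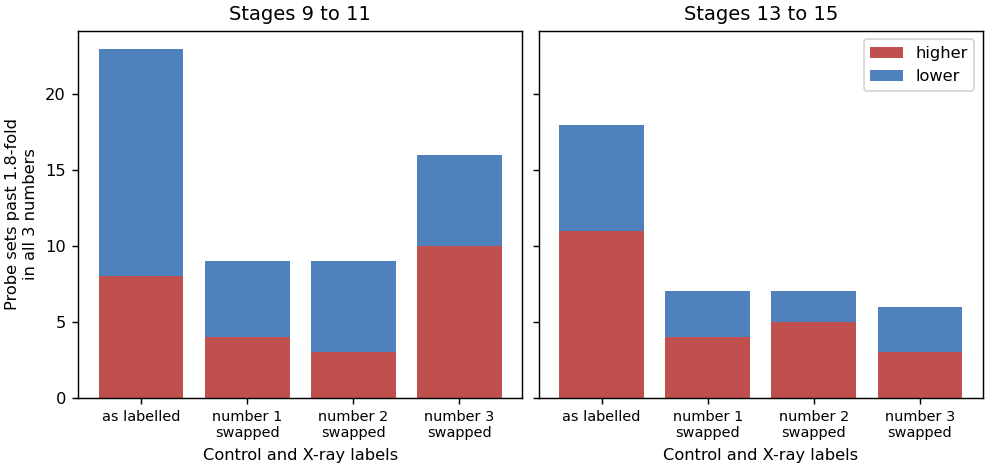
Number of probe sets past a ratio of 1.8 in 1 direction within all 3 replicate numbers (y axis), with the labels as given and with control and X-ray exchanged within 1 number (x axis), at stages 9 to 11 (left) and 13 to 15 (right). Red and blue parts of a labelled bar are probe sets higher and lower after X-rays. In an exchanged bar this direction holds in 2 numbers and is opposite in the exchanged number. The labelled bars stand at 23 and 18, and the exchanged ones between 6 and 16.

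The numbers contributed unequally to the rule. Among the 6471 probe sets, 668 were past 1.8-fold in either direction within number 1, 866 within number 2 and 434 within number 3. The smallest of the 3 ratios, which decides membership, was 1.82 to 3.98 for the higher members and, as control over X-ray, 1.82 to 6.22 for the lower ones. Just inside the threshold lay 147816_AT (1.82) and 147041_AT (1.85) on the higher side. Just outside it lay 141433_AT (1.797) and 152052_AT (1.75). On the lower side 148544_AT (1.82) and 143296_AT (1.84) lay just inside, and 150674_AT and 151996_AT (1.76 each) just outside.

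The higher members were mostly weak. Their mean over the 6 sensitive arrays ran from 52.7 to 403, with a median of 76.4, and 4 of 8 read under 30 on at least 1 array. In all 8 the irradiated and control groups did not overlap at stages 9 to 11, against 3.63% of the 6471 probe sets. The rule demands ratios of this size, so that count is a description.

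153035_AT had the highest level of them. It read 139, 152.5 and 174 on the control arrays numbered 1, 2 and 3, and 615, 608 and 730 on the irradiated ones. All 3 irradiated arrays were high, and the ratios within numbers of 4.43, 3.98 and 4.19 were the most even of any member. 143680_AT read 85.1, 91.2 and 126 in controls and 287, 373 and 483 in irradiated embryos, so that its ratios were 3.37, 4.09 and 3.83. In this probe set too every irradiated array exceeded every control array by more than 2-fold.

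The other higher members named by size rested on weaker signal. 149153_AT read 19.5, 43.5 and 21.5 in controls and 162, 130 and 71.9 in irradiated embryos. Its ratio of 8.32 within number 1 came with a control value under 30, and the ratios within numbers 2 and 3 were 3.00 and 3.34. 143636_AT moved from 31.5, 28.9 and 34.5 to 72.5, 78.5 and 70.4, with little spread in either group. 145700_AT read 39.6, 22.7 and 38.1 in controls and 83.2, 56.6 and 77.2 after X-rays, ratios of 2.10, 2.49 and 2.03. For 141483_AT the mean was carried by 1 low control array: it read 42.3, 65.9 and 9.80 in controls and 113, 133 and 104 in irradiated embryos, so that the ratio was 10.6 within number 3 and 2.66 and 2.02 in the others.

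**Figure D2:**
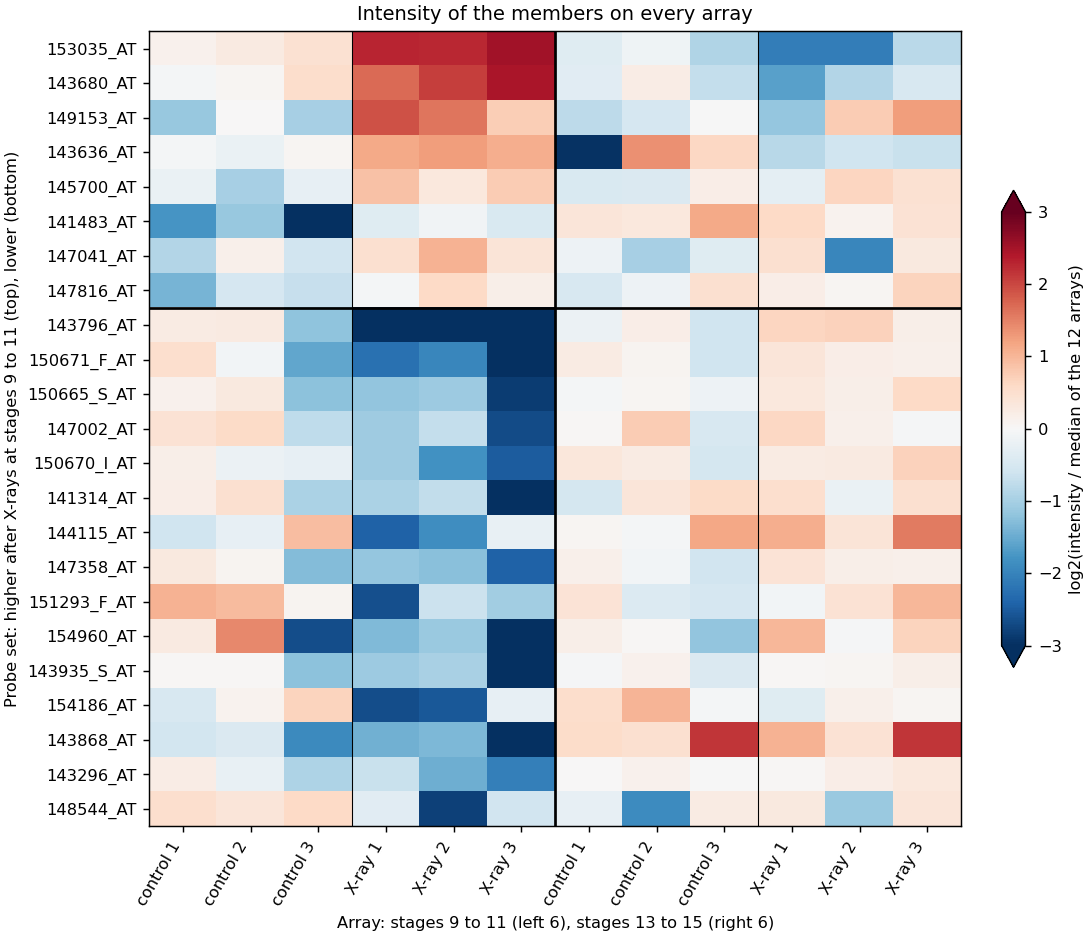
Intensity of the 23 members (rows, by identifier) on the 12 arrays (columns, by group and replicate number), coloured as log2 of the intensity over the median of the 12 arrays, with values beyond 3 in either direction at the end colours. The upper block holds the 8 members higher after X-rays at stages 9 to 11 and the lower block the 15 lower ones. In the lower block the irradiated arrays of the earlier window, and in most rows its control array numbered 3, are bluer than the other arrays.

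The lower members were brighter, and many of them resembled each other across arrays. Their mean over the 6 sensitive arrays ran from 53.2 to 1721, with a median of 113, and 10 of 15 read under 30 on at least 1 of those arrays. Unlike the higher members, only 5 of 15 had irradiated and control groups that did not overlap at stages 9 to 11, against 2.84% of the 6471 probe sets. The rule demands ratios of this size for these members too, so that count is a description. In the other 10 the ratio within each number was past the threshold, but a control array of 1 number was as low as an irradiated array of another.

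143796_AT had the largest smallest ratio of all members. Its control arrays read 232, 234.5 and 84.0 and its irradiated arrays 24.0, 22.5 and 13.5, so that control exceeded X-ray by 9.66, 10.4 and 6.22-fold. All 3 irradiated values lay under 30, where the share of background is not known. 150671_F_AT read 2232, 1487 and 536 in controls and 333, 403 and 23.4 in irradiated embryos. Its groups did not overlap, and its control over X-ray ratio spread from 3.69 within number 2 to 22.9 within number 3.

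150671_F_AT had company among its neighbours by identifier. 150665_S_AT read 617, 688 and 239 in controls and 246, 262 and 77.9 in irradiated embryos, ratios of 2.51, 2.63 and 3.07. The groups overlapped there, since control array 3 read lower than irradiated arrays 1 and 2. 150670_I_AT read 184, 145 and 137 in controls and 78.3, 46.4 and 28.8 in irradiated embryos, with no overlap. Of the 4 probe sets numbered between these 3, 150669_R_AT alone reached a mean of 50. It read 95.2, 66.7 and 116 in controls and 96.7, 73.0 and 93.2 in irradiated embryos, with overlapping groups. Shortly after 150671_F_AT by number comes 150674_AT, with a mean of 409. It lay just outside the threshold, with control over X-ray ratios of 1.77, 2.01 and 1.76. Whether the 3 members share a target is not given in the files.

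Several lower members with strong signal followed 1 profile. 147002_AT read 634, 689 and 275.5 in controls and 223, 282 and 72.8 in irradiated embryos. 147358_AT, chosen after its values were seen because it is bright, read 1669, 1450 and 556 in controls and 616, 575 and 254 in irradiated embryos. 143935_S_AT, the brightest member and chosen in the same way, read 2989, 2961 and 1235 in controls and 1362, 1480 and 296 in irradiated embryos. In each of these 3 probe sets the control arrays 1 and 2 were high, control array 3 stood near the irradiated arrays 1 and 2, and irradiated array 3 was the lowest of all.

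Parts of that profile were common among the lower members, with exceptions. In 144115_AT and 154186_AT the arrays numbered 3 were the highest control and the highest irradiated array. In 143796_AT control array 3 (84.0) stood well above irradiated arrays 1 and 2 (24.0 and 22.5). Control array 3 was the lowest of the 3 controls in 12 of 15, against 33.5% of the 6471 probe sets. Irradiated array 3 was the lowest of the 6 arrays in 11 of 15, against 14.8%. The rule puts each irradiated array of a lower member under the control of its number. The lowest of the 6 was thus bound to be an irradiated one, and 14.8% is not a like share. The median deviation from each member's own mean log2 level was 1.13 and 1.20 on control arrays 1 and 2 and −0.06 on control array 3. On irradiated arrays 1, 2 and 3 it was −0.19, −0.27 and −1.86. Control arrays 1 and 2 thus lay close together and control array 3 well below them. The median log2 ratio within numbers 1, 2 and 3 was −1.44, −1.60 and −1.62. The eIF-4a 5′ over 3′ ratio was 0.140 and 0.198 on the sensitive control and irradiated arrays numbered 3, against 0.0378 to 0.0798 on the other 4 arrays of that window. The part of array quality in these results was not tested.

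Some of the lower members carried a suffix letter in their identifiers, which the rule did not use. In the maker's naming a letter before AT marks probe sets whose probes may match related sequences or that were chosen under relaxed rules. Such letters stood in 5 of 23 members (21.7%), all of them lower after X-rays, against 3.28% of the 6471 probe sets. These 5 were 143935_S_AT, 150665_S_AT, 150670_I_AT, 150671_F_AT and 151293_F_AT. Their signal may come from more than 1 transcript, and the 3 with neighbouring numbers may not be separate observations.

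The arrays of stages 13 to 15 took no part in the choice of the members and give a measurement of the same contrast. No member met the rule there, which is likely for any list this short, since the rule took 0.161% (higher) and 0.103% (lower) of probe sets. None was called in limma on the 6 resistant arrays. Of 8891 probe sets tested 0% had an adjusted p under 0.05, while 349 (3.93%) had an unadjusted p under 0.05, among them 4 of the 22 members tested. With the replicate number as a block, which pairs these arrays, 0 were called, 739 (8.31%) had an unadjusted p under 0.05, among them 7 members, and the smallest adjusted p was 0.310. The untested member was 143636_AT, which was under the filter on low values. Without the block the smallest adjusted p of any probe set was 0.770, and the members stood at an adjusted p of 1.00 each (limma, Benjamini-Hochberg over all probe sets). The median half-width of the 95% interval was 0.668 on the log2 scale, without adjustment for the number of tests. Members with differences of up to 0.95 in size did not pass after adjustment.

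The 8 members with higher irradiated values at stages 9 to 11 had no common direction in the later one. The mean log2 ratio was above 0 in 4 and below 0 in 4, with a range of −1.18 to 0.72 and a median of −0.06. All 3 ratios were above 1 in 2 of them, against 18.2% of the 6471 probe sets, and all 3 below 1 in 0, against 13.8%. 153035_AT read 98.9, 116 and 67.5 in controls and 30.2, 30 and 72.7 in irradiated embryos, so that it was lower within numbers 1 and 2 and level within number 3. Its log2 difference was −0.95 ± 0.36 (SE, limma on log2(value + 13.4), unadjusted p = 0.0225, adjusted p = 1.00). 143680_AT read 70.1, 103 and 53.9 and then 28.3, 47.6 and 62.9, a log2 difference of −0.59 ± 0.35 (SE), with the same split between numbers. The third by p, 149153_AT, went the other way, with a log2 difference of 0.60 ± 0.48 (SE). It read 24.9, 30.6 and 42.6 and then 19.4, 72.6 and 103, so that it was higher within numbers 2 and 3 and lower within number 1.

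The 15 members with lower irradiated values at stages 9 to 11 leaned the other way in the later one, by small amounts. The mean log2 ratio was above 0 in 14 of 15, against 52.9% of the 6471 probe sets, with a median of 0.38 and a range of −0.55 to 0.88. The exception was 154186_AT, with a log2 difference of −0.48 ± 0.30 (SE, limma, adjusted p = 1.00). All 3 ratios were above 1 in 7 of 15, against 18.2%, and the groups did not overlap in 2 (150665_S_AT and 147358_AT), against 6.09% for higher irradiated values and 4.17% for lower ones. Without a test of its own the lean is a description, and it was uneven between numbers. Over the 15 members the median log2 ratio was 0.39 within number 1, 0.07 within number 2 and 0.59 within number 3.

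**Figure D3:**
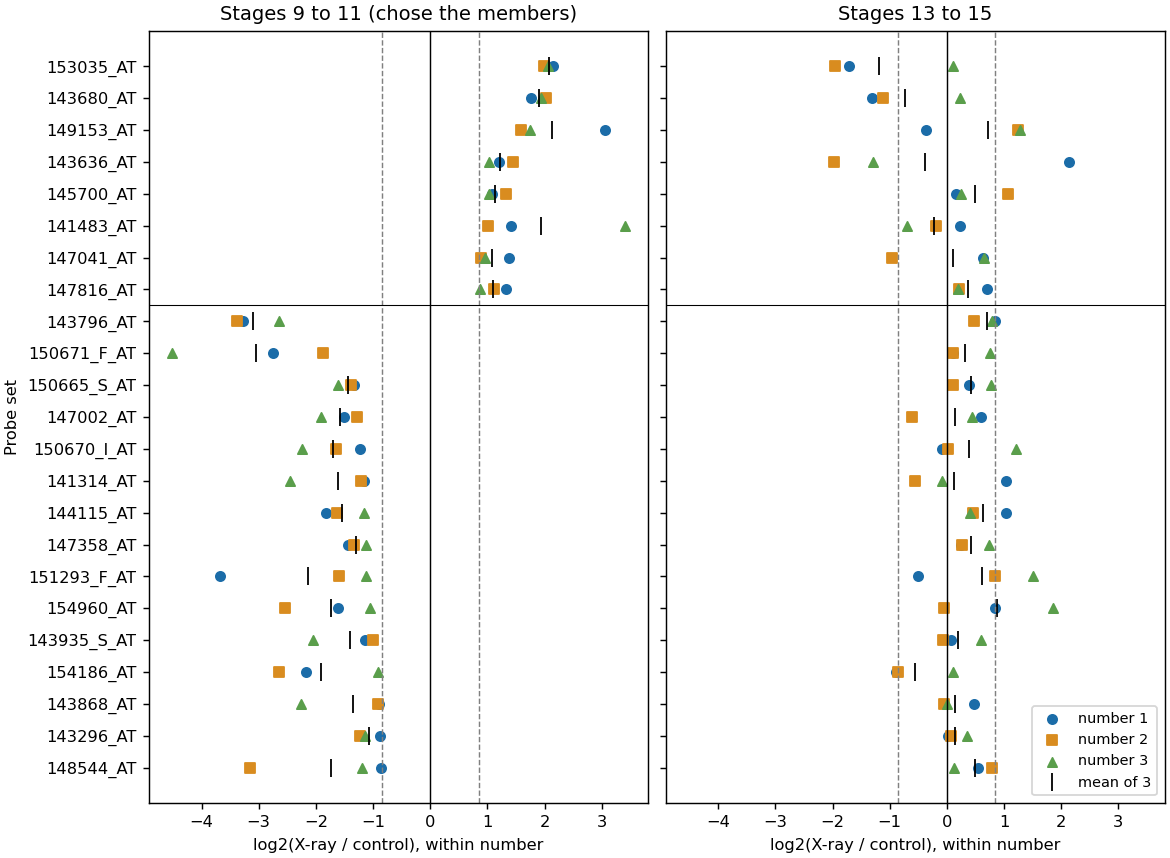
Log2 ratio of X-ray over control intensity (x axis) within replicate numbers 1 (circles), 2 (squares) and 3 (triangles) for each of the 23 members (y axis), with the mean of 3 as a bar and dashed lines at the 1.8-fold threshold. At stages 9 to 11 (left), which chose the members, all points lie beyond the dashed lines by construction. At stages 13 to 15 (right) the 8 upper members scatter on both sides of 0 and 14 of the 15 lower ones have a mean above 0.

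In the fit without a replicate block, the 3 lower members with the smallest p in the later window were 143796_AT, 154960_AT and 150665_S_AT. 143796_AT read 171, 225 and 128 in controls and 304, 312 and 221 after X-rays, and limma put the log2 difference at 0.66 ± 0.23 (SE, unadjusted p = 0.0170, adjusted p = 1.00). 154960_AT read 436, 395 and 170 and then 779, 380 and 613, a difference of 0.85 ± 0.34 (SE). The difference was 0.41 ± 0.17 (SE) for 150665_S_AT, which read 536, 589 and 502 and then 702, 635 and 854. The irradiated values of 150665_S_AT all exceeded its controls, while those of the other pair of probe sets overlapped with theirs. With the replicate block the smallest unadjusted p among the members in limma were 0.00192 for 143796_AT, 0.00418 for 147358_AT and 0.00543 for 144115_AT, with adjusted p of 0.470 to 0.473.

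Among the resistant arrays, the control numbered 3 read low for most of the lower members. It was the lowest of the 6 resistant arrays in 10 of 15 lower members, against 16.4% of the 6471 probe sets, and its median deviation from the members' own means was −0.42 on the log2 scale. The deviations of the other 5 arrays were −0.02 to 0.29. The median log2 difference of the 15 members in limma was 0.34 with all 6 arrays. It was 0.29 without resistant control replicate 3, and 0.25 to 0.44 without any 1 of the 6 arrays, the lowest being without resistant X-ray replicate 1. On numbers 1 and 2 alone, a setting chosen after seeing the data, it was 0.17, with 11 of 14 tested members above 0. The same 2 control arrays numbered 3, one in each window, thus read low for these probe sets without irradiation.

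The level of the members at stages 13 to 15 was set beside their level at stages 9 to 11. In untreated embryos the 15 lower members stood close to their later level: the median log2 difference, later minus earlier, was 0.18. Of these 15, 1 was called higher at the later stages (143868_AT, against 13.1% of 8791 probe sets) and 0 lower (against 15.5%). In irradiated embryos the median was 1.85, with 13 of 15 called higher (against 12.9% of 8901 probe sets) and 0 lower (against 12.5%). By group averages, the irradiated arrays of the earlier window were the ones apart from the other 3 groups. By single arrays they were not: control array 3 of that window (median deviation −0.06) lay nearer irradiated arrays 1 and 2 (−0.19 and −0.27). Its control arrays 1 and 2 stood at 1.13 and 1.20. The rule chose these members for low irradiated and high control arrays in that window, so both comparisons are biased by the choice and neither counts as a test.

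**Figure D4:**
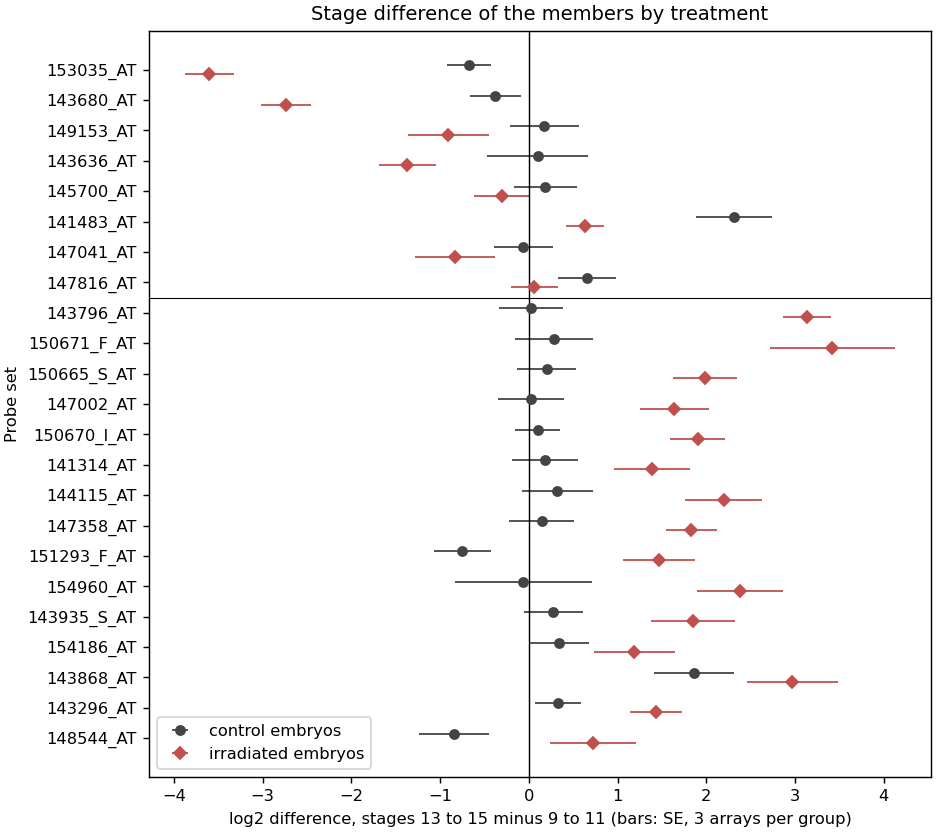
Log2 difference between stages 13 to 15 and stages 9 to 11 (x axis, on the log2(value + 13.4) scale, bars are the SE with 3 arrays per group) of the 23 members (y axis) in control embryos (grey circles) and irradiated embryos (red diamonds). Most lower members lie near 0 in controls (median 0.18) and well above it in irradiated embryos (median 1.85), while 143868_AT and 141483_AT differ between stages in controls.

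Averaged over treatments, 13 of 23 members were called for stage in limma on all 12 arrays. Among the lower members 10 were higher at the later stages (against 18.1% of 10128 probe sets) and 0 lower (against 19.9%). Of the higher members 1 was higher later and 2, 153035_AT and 143680_AT, were lower later by −2.14 ± 0.19 and −1.56 ± 0.21 on the log2 scale (SE). The average contains a part of the X-ray difference that chose the members, so these calls are not independent of the rule. 143796_AT shows this: its averaged stage difference was 1.58 ± 0.23, but 0.02 ± 0.36 in control embryos alone (SE).

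For 143868_AT and 141483_AT the stage difference was also present without irradiation. 143868_AT read 118, 127 and 46.0 in untreated embryos of the earlier window and 253, 240 and 756 in the later one, a log2 difference of 1.86 ± 0.45 (SE, limma on the 6 control arrays, adjusted p = 0.0113). Every later array exceeded every earlier one, and the rule, which took this probe set for high earlier controls, works against that difference. 141483_AT read 42.3, 65.9 and 9.80 and then 186, 178 and 315, a log2 difference of 2.31 ± 0.43 (SE). Here the rule, which favoured low earlier controls, works toward the difference.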

How the data were processed

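The deposited table holds intensities on a linear scale for 14010 probe sets, 44 of them array controls, on 12 arrays of 1 colour. How the authors corrected the background and normalized the arrays, and with which software, the sources used here do not give. The deposited intensities had been scaled, since the mean of each array after trimming 2% at both ends varied by 0.00230%, and they were not normalized again. Such scaling hides a change shared by all probe sets. The members, lists and tests were chosen with earlier results of these data known.

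Ratios were computed within replicate numbers. For tests, values were taken as log2(value + 13.4), the pseudocount being the 25th percentile of the table, which understates changes of weak probe sets. Probe sets above 30 (the 40th percentile) on at least 3 arrays of the fit were kept. limma 3.58.1 in R 4.3.3 (lmFit, eBayes with a trend) gave 2-sided tests with Benjamini-Hochberg adjustment over all probe sets at 0.05. The X-ray test used the 6 resistant arrays alone. The code was tested on simulated data. The number of arrays limits the precision, and no detection calls were used.

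By a rule, the text names the 5 members per direction with the largest smallest ratio, up to 3 per direction with the smallest p in each test, and the probe sets next to the threshold. Same-numbered resistant control and X-ray arrays deviated together (correlations 0.101 to 0.435), so the number was taken to pair them. The main fit had no replicate block. The SE and p given for single members thus ignore this pairing, except where the block is named. By these correlations, only number 3 (0.435) stood out clearly. Control array 1 correlated at 0.101 with X-ray array 1 and 0.140 with X-ray array 2. For control array 2 the values were 0.0837 with X-ray array 1 and 0.116 with X-ray array 2. The fit with the replicate number as a block also called 0 probe sets. Alternatives were other thresholds, offsets, filters, normalization, no pairing, no trend and leaving out arrays.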

Additional observations from a re-analysis of the deposited data

Results flagged for a closer look

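In 7 members the X-ray to control ratio was below 1 within all 3 numbers at stages 9 to 11 and above 1 within all 3 at stages 13 to 15. The difference between the windows was not tested, because the earlier direction was fixed by the choice of the members. In the later window by itself, 18.2% of the 6471 probe sets had all 3 later ratios above 1. The earlier minus the later mean log2 ratio was −3.80 for 143796_AT, −3.37 for 150671_F_AT, −1.87 for 150665_S_AT, −2.16 for 144115_AT, −1.72 for 147358_AT, −1.23 for 143296_AT and −2.22 for 148544_AT. No higher member showed the opposite pattern. With 3 arrays per group, single arrays were not screened for outliers.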

How the results depend on the processing

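The number of members depended strongly on the rule. In place of 23 (8 higher, 15 lower) it was 75 at a ratio of 1.5 (33, 42) and 6 at 2.5 (3, 3). It was 64 with a minimum mean of 25 (29, 35), 12 with 100 (2, 10) and 268 with none (173, 95), where the excess of lower probe sets turned. Adding the 25th percentile to every value left 14 (4, 10), and adding 4 times that value, chosen after seeing the data, left 10 (2, 8). When every irradiated array had to differ 1.8-fold from every control array, without pairing, 4 remained (3, 1), so the excess turned there too. At a ratio of 2 (17) and under quantile normalization (22, of which 20 were members) the count stayed within 1.5 times. On any 2 numbers, a looser rule by construction, it was 66 to 145, the highest without the arrays numbered 3 (74, 71), where the directions were nearly level. At stages 13 to 15, in place of 18, the count was 70 and 10 at ratios of 1.5 and 2, and 2 at 2.5. It was 78, 2 and 246 with minimum means of 25, 100 and none, 10 with the offset, 5 without pairing and 59 to 209 on any 2 numbers.

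The resistant X-ray test called 0 probe sets in 14 of 15 alternatives and 1, not a member, on numbers 1 and 2 alone. Between 12 and 14 of the 15 lower members stayed positive in every fit that left out 1 array. The stage difference was called for 3844 probe sets, for 2520 in control arrays alone and for 2256 in X-ray arrays alone, which hold fewer samples. Of the members, 13 were called, 2 in control arrays alone, with 1 rather than 10 of the lower members. With the replicate number as a block, 4333 were called. Over all groups 11 of 18 same-numbered pairs of arrays correlated above 0.1, so the number was not taken to pair the windows. The BioB array control did separate the numbers in both windows.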

Other observations

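The 18 probe sets that met the same rule at stages 13 to 15 also included many identifiers with a suffix letter, 5 of 18 (27.8%), against 3.28% of the probe sets with a mean of at least 50 at stages 9 to 11. All 5 were higher after X-rays there. Neighbours by number again occurred among them: 143338_F_AT and 143339_I_AT had mean log2 ratios of 1.56 and 1.17 at stages 13 to 15, and of −1.52 and −1.48 at stages 9 to 11. The earlier ratios of 143338_F_AT were split, with 1 of 3 above 1, while for 143339_I_AT 0 of 3 were. Both neighbours were chosen after their values were seen, and no test was made.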
